A study of Homo sapiens with 10 samples.

Results

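The 8 myeloid growth factor receptors described here are CSF2RA, IL3RA, CSF2RB, CSF3R, EPOR, CSF1R, KIT and FLT3, taken by gene symbol from the protein-coding rows of the deposited tables. They are 8 genes in 10 of the 60603 rows, because CSF2RA and IL3RA each have a second row for their copy on the Y chromosome. RNA came from NB4, an acute promyelocytic leukemia cell line, in 2 experiments. In the GSE1 knockdown experiment the cells carried the empty pLKO.1 puro lentiviral vector (EV) or the same vector with the short hairpin shA1 or shB2 against GSE1, and were collected 48 h after transduction in 2 infection cycles. In the LSD1 inhibitor experiment, cells without a vector received DMSO or 2 µM of the LSD1 inhibitor MC2580 for 24 h. Each of the 5 groups has 2 replicates, and all of them are the same cell line.

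The quantity used is the base mean, the authors' average over the libraries of an experiment of gene counts divided by size factors. It pools treated and control libraries, so it gives the level of a receptor in an experiment and no level in EV, shA1, shB2, DMSO or MC2580 alone. No value per library was at hand, so no standard deviation, total count per library or test between groups is given, and how the receptors respond to GSE1 depletion or to MC2580 was not analysed here. Summed over the rows, the base means came to 40543130 in the knockdown table and 41201112 in the inhibitor table. A gene counts as detected below when its base mean was at least 10. Of the 19957 protein-coding rows outside Y copies, 12609 were detected in the knockdown experiment and 12583 in the inhibitor experiment.

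Growth factor receptors carry the signals that keep blood precursors alive and steer them to granulocytes, macrophages or red cells. CSF2RA, IL3RA, CSF2RB, CSF3R and EPOR are cytokine receptors that have no kinase of their own and signal through JAK kinases and STAT factors, whereas CSF1R, KIT and FLT3 are receptor tyrosine kinases. The chains CSF2RA and IL3RA bind GM-CSF and IL-3, and each needs the shared chain CSF2RB to signal. In textbook myelopoiesis KIT and FLT3 mark early progenitors, CSF3R the granulocytic line and CSF1R the monocytic line.

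The GM-CSF and IL-3 binding chains were listed at 0. CSF2RA (ENSG00000198223.16, chromosome X, 1268800 to 1310381, plus strand) had a base mean of 0 in the knockdown table and of 0 in the inhibitor table, and IL3RA (ENSG00000185291.11, chromosome X, 1336616 to 1382689, plus strand) was also listed at 0 in each. Their rows for the Y copies held 0 as well. Both genes lie in the first pseudoautosomal block, the stretch at the tip of the short arms that X and Y share. A second, smaller block lies at the tip of the long arms. In hg38 the 4093 merged exon bases of CSF2RA showed 0 mismatches between X and Y, and so did the 1710 merged exon bases of IL3RA. The first 30 coding bases of both copies are shown because they illustrate that a read from these exons has 2 equal places in this genome. The start codon is in capitals, and coordinates are those of GRCh38, plus strand.
CSF2RA on X, chrX:1282704-1282733: ATGcttctcctggtgacaagccttctgctc
CSF2RA on Y, chrY:1282704-1282733: ATGcttctcctggtgacaagccttctgctc
IL3RA on X, chrX:1341766-1341795: ATGgtcctcctttggctcacgctgctcctg
IL3RA on Y, chrY:1341766-1341795: ATGgtcctcctttggctcacgctgctcctg

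The zeros were shared by the genes of both blocks that have a row for a Y copy. The tables hold 45 genes with a row for a Y pseudoautosomal copy, of which 18 are protein-coding, and all 45 were listed at 0 on X and on Y in both tables. Among them are genes that practically every cell uses, such as SLC25A6, an ADP/ATP carrier of the mitochondrial membrane, and VAMP7, a vesicle fusion protein, and the surface protein gene CD99. For a comparison, the end of the first block was set at the end of its last gene with a row for a Y copy. Of the 92 other protein-coding X genes that start within 20 Mb beyond this point, 44 were detected in the knockdown table and 44 in the inhibitor table. Being detected is another measure than being listed at 0, and both are given for all protein-coding rows outside Y copies. Of these 19957 rows, 12609 were detected in the knockdown table and 12583 in the inhibitor table. Listed at 0 were 13.1% in the knockdown table and 14.4% in the inhibitor table. The 0 of CSF2RA and of IL3RA is therefore given as listed, and their mRNA level in these cells was not measured here. The part that the identical copies played in the zeros was not tested.

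**Figure D1:**
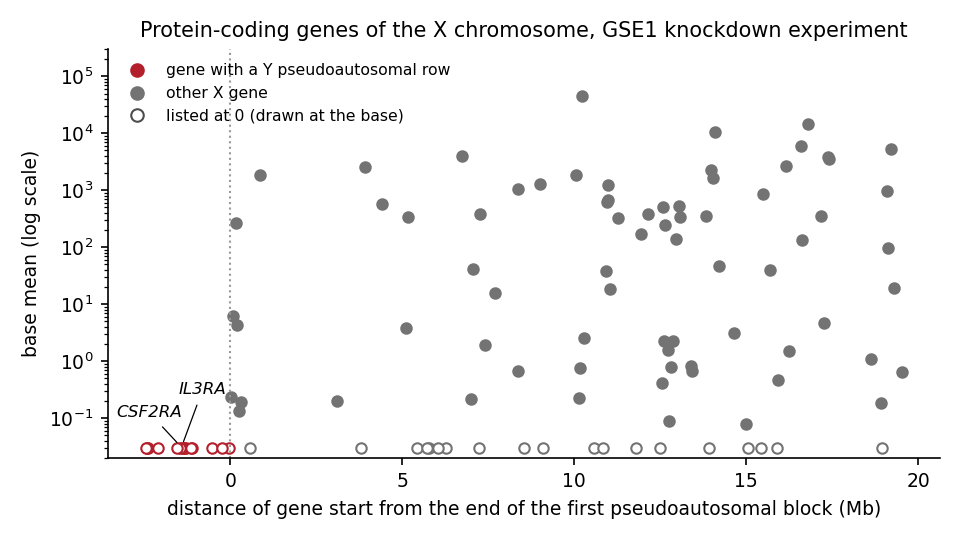
Base mean (log scale) of protein-coding X genes in the GSE1 knockdown experiment. The horizontal axis is the distance of the gene start from the end of the first pseudoautosomal block, in Mb. That end was set at the end of the last gene of the block with a Y pseudoautosomal row. Red circles are genes with a Y pseudoautosomal row, grey circles are other X genes, and open circles, drawn at the base of the axis, are genes listed at 0. Every red circle, CSF2RA and IL3RA included, is open.

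CSF2RB (ENSG00000100368.14, chromosome 22, 36913628 to 36940439, plus strand), the signalling chain that the GM-CSF, IL-3 and IL-5 receptors share, was detected in each experiment. Its base mean was 402 in the knockdown table and 134 in the inhibitor table. The shared chain was thus seen while its partners CSF2RA and IL3RA were listed at 0. IL5RA, the third partner chain, lies outside the pseudoautosomal blocks and had base means of 6.34 and 3.77, below the level taken as detected.

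CSF3R (ENSG00000119535.17, chromosome 1, 36466043 to 36483278, minus strand), the receptor for G-CSF, had the highest base mean of the 6 detected receptors. It was 2641 in the knockdown table and 2562 in the inhibitor table, which are 65.1 and 62.2 per 1000000 of the summed base means. EPOR (ENSG00000187266.14, chromosome 19, 11377207 to 11384342, minus strand), the erythropoietin receptor, had base means of 218 and 229. Of the 3077 merged exon bases of EPOR, 2 overlap the neighbouring gene RGL3, whose base means were 0.320 and 0, and no exon of the other receptors overlaps one of another gene on either strand.

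Among the tyrosine kinase receptors, CSF1R and FLT3 were detected well above the level taken as detected and KIT much nearer to it. CSF1R (ENSG00000182578.13, chromosome 5, 150053291 to 150113372, minus strand), the receptor for M-CSF and IL-34, had base means of 668 in the knockdown table and 729 in the inhibitor table. FLT3 (ENSG00000122025.14, chromosome 13, 28003274 to 28100592, minus strand), the receptor for FLT3 ligand, had base means of 895 and 576. KIT (ENSG00000157404.15, chromosome 4, 54657267 to 54740783, plus strand), the receptor for stem cell factor and a marker of immature cells, had a base mean of 66.3 in the knockdown table and of 17.6 in the inhibitor table. KIT was thus the lowest of the detected receptors in both tables, and in the inhibitor table it lay close to the level taken as detected. CD34, a surface protein of stem and progenitor cells, was below that level in both, at 4.58 and 4.67.

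**Figure D2:**
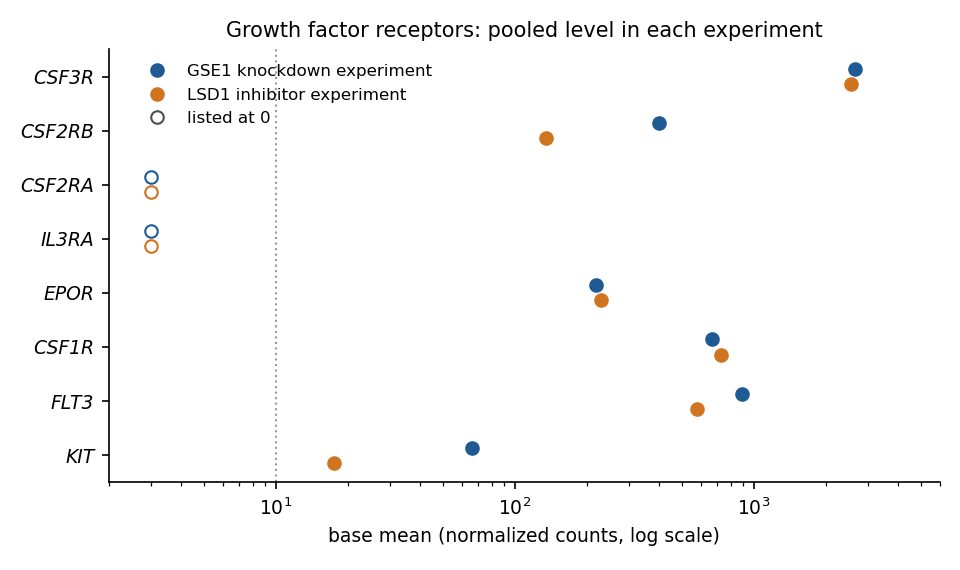
Base mean (normalized counts, log scale) of each receptor in the GSE1 knockdown experiment (blue) and the LSD1 inhibitor experiment (orange), each point being the authors' mean over all libraries of that experiment. Open circles at the left mark receptors listed at 0, and the dotted line is a base mean of 10. CSF3R lies furthest right in both experiments, at 2641 and 2562, and the points of KIT and CSF2RB are well apart.

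To compare receptors with each other, base means were divided by the length of the merged exons and rescaled so that all genes with a length sum to 1000000. On this scale of level per length, the order in the knockdown table was CSF3R at 22.9, FLT3 at 19.8, CSF1R at 11.9, CSF2RB at 7.41, EPOR at 6.50 and KIT at 0.54. In the inhibitor table it was CSF3R at 20.1, CSF1R at 11.8, FLT3 at 11.5, EPOR at 6.20, CSF2RB at 2.24 and KIT at 0.13. CSF3R came first and KIT last in both. Per length, CSF3R made up 33.2% of the summed level of the 6 detected receptors in the knockdown table and 38.7% in the inhibitor table, while KIT made up 0.779% and 0.248%.

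Some places in this order depend on which length is used. In the knockdown table CSF3R exceeded FLT3 per length by 1.16-fold with merged exons, by 1.86-fold with the longest transcript and by 3.39-fold with the coding sequence, since the merged exons of CSF3R span 10594 bases and its longest coding sequence 2589. CSF2RB exceeded EPOR per length with merged exons but not with the longest transcript in that table (5.46 against 5.95), so these neighbours could not be ordered. In the inhibitor table CSF1R and FLT3 differed by 1.02-fold with merged exons, 1.21-fold with the longest transcript and 1.29-fold with the coding sequence. FLT3 exceeded KIT per length by 36.8-fold in the knockdown table and by 89.2-fold in the inhibitor table with merged exons, and by 13.3-fold and 32.2-fold with the coding sequence. KIT was the lowest detected receptor with each of the 3 lengths. Without replicate values, how far such gaps exceed the spread between libraries could not be given.

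Set against all detected protein-coding genes, the 6 detected receptors ranged from the middle to the low end of the levels per length. CSF3R lay at the 56.1st percentile of level per length in the knockdown table, FLT3 at the 52.4th, CSF1R at the 41.1st, CSF2RB at the 32.4th, EPOR at the 30.3rd and KIT at the 6.68th. In the inhibitor table CSF3R lay at the 57.6th percentile, CSF1R at the 45.0th, FLT3 at the 44.6th, EPOR at the 32.7th, CSF2RB at the 19.5th and KIT at the 0.96th. These percentiles are over the detected genes with a length, 12589 in the knockdown table and 12563 in the inhibitor table. They use merged exons alone and were not computed with the other lengths. The median detected gene had a level per length of 18.0 in the former and of 14.6 in the latter, so that 2 of the 6 detected receptors stood above it in the knockdown table and 1 in the inhibitor table. These counts depend on the settings: with the median taken over all genes above 0 they were 4 and 4, and the knockdown count was 1 with the longest transcript, with no length or with the median taken over genes at 50 or more. CSF2RA and IL3RA could not be placed.

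**Figure D3:**
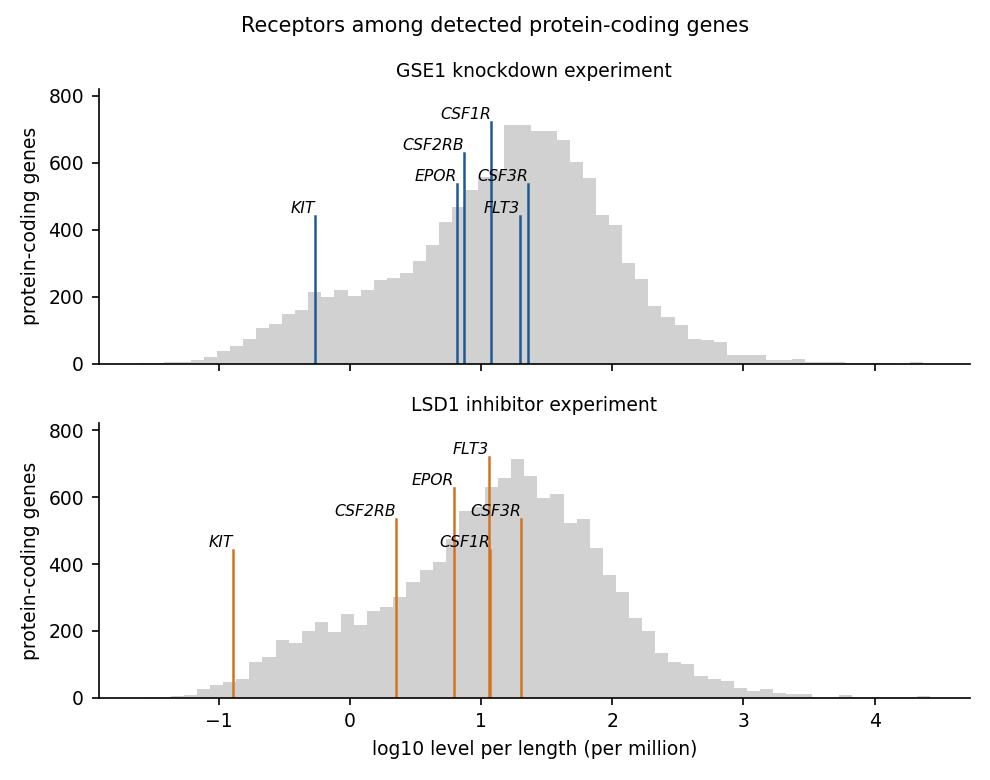
Distribution of the log10 level per length (per 1000000) of detected protein-coding genes, as grey bars of gene counts, in the GSE1 knockdown experiment (top) and the LSD1 inhibitor experiment (bottom), with a vertical line at each detected receptor (line heights only separate the names). With the length of the merged exons, CSF3R stands near the middle of both distributions, at the 56.1st and 57.6th percentiles, and KIT at their low end.

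The levels of the receptors in both experiments were then placed side by side. These tables were normalized separately, and the experiments differ in the vector, in the time of collection and in the treatments pooled into each mean, which cannot be told apart, so no test was made across them. Over the 12354 protein-coding genes detected in both, the log2 base mean in the knockdown table minus that in the inhibitor table was centred on its median, and 90% of the genes lay between -0.75 and 0.90. KIT was 1.85 higher in the knockdown table on this log2 scale, above 99.5% of the genes, and CSF2RB was 1.51 higher, above 98.9%. Both genes had base means below the median detected gene, at 1087 and 1003. KIT had 66.3 and 17.6, the latter close to the level taken as detected, and CSF2RB had 402 and 134. The percentiles are over genes of every level, and KIT and CSF2RB were not compared with genes of like level. FLT3 was 0.57 higher and stood at the 87.7th percentile. The other detected receptors were near the centre, with log2 differences of -0.14 for EPOR and -0.19 for CSF1R. For CSF3R the log2 difference was -0.02, and it turned to 0.04 without centring and to 0.07 with base means scaled to a sum of 1000000, so it has no direction. Hence the early-progenitor receptor KIT and the shared chain CSF2RB had the widest gaps between the experiments among the 6 detected receptors, and CSF3R the narrowest.

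**Figure D4:**
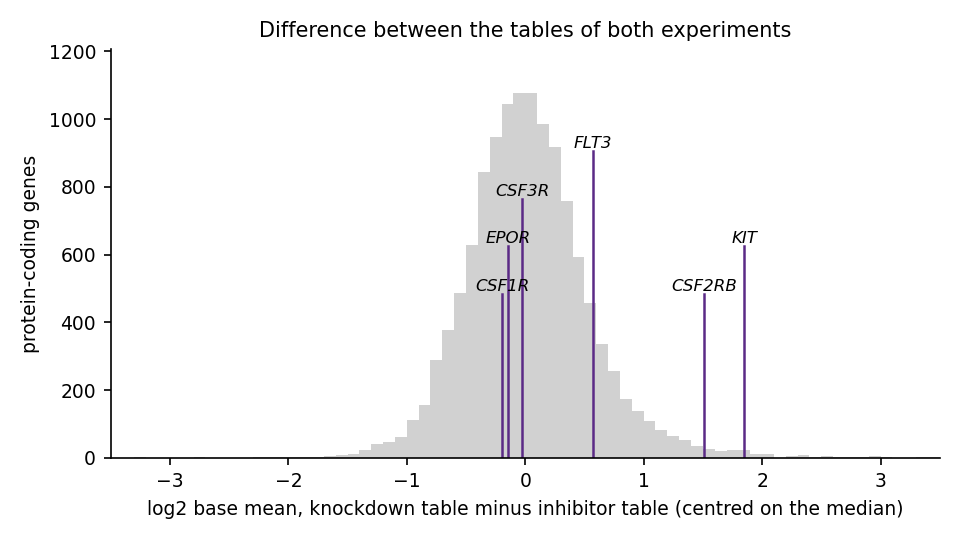
Distribution over detected protein-coding genes of the log2 base mean in the knockdown table minus that in the inhibitor table, centred on the median, with a vertical line at each detected receptor (line heights only separate the names). KIT at 1.85 and CSF2RB at 1.51 lie in the right tail, and EPOR, CSF1R and CSF3R lie near 0.

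The ligands of these receptors were mostly below detection. Of 9 ligand genes, 2 were detected in the knockdown table and 3 in the inhibitor table. Among all protein-coding genes it was 12609 and 12583 of 19957. CSF1, which encodes M-CSF, the ligand of CSF1R, had base means of 145 and 47.3, and FLT3LG, the ligand of FLT3, had 146 and 142. Both receptors of these ligands were themselves detected. CSF2 (GM-CSF), CSF3 (G-CSF), IL3 and IL5 had base means between 0 and 1.04, and KITLG, the ligand of KIT, had 1.94 and 4.08. EPO was at 4.37 in the knockdown table and at 11.1 in the inhibitor table.

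Near relatives of the receptors showed a wide range. IL6R, the IL-6 receptor, had base means of 4242 and 3401, above CSF3R in both tables also per length (55.8 against 22.9 and 40.5 against 20.1). IL6ST, the gp130 chain with which IL6R signals, had 354 and 188. PDGFRB, a tyrosine kinase of the same class as CSF1R, had 52.6 and 18.3, while PDGFRA, another member of that class, was not detected, at 0.767 and 2.16.

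The machinery just below the receptors was abundant. Of 22 genes for kinases, adaptors and STAT factors, 21 were detected in each table, and 17 in the knockdown table and 16 in the inhibitor table exceeded the median detected gene per length. Over all protein-coding genes, 12609 and 12583 of 19957 were detected. TYK2, a JAK kinase, stood highest in the knockdown table with a level per length of 218, and GRB2, the adaptor that links receptors to RAS, highest in the inhibitor table with 233. JAK2, the kinase that EPOR and CSF2RB bind, had a level per length of 12.2 and 7.55, and STAT5A and STAT5B had 64.3 and 43.3 in the knockdown table and 68.6 and 36.2 in the inhibitor table. JAK3 was the undetected member, with base means of 1.44 and 0.81. The 7 feedback inhibitors were all detected in both tables, from SOCS3 at 3.01 to DUSP6 at 196 per length in the knockdown table and from SOCS3 at 1.72 to DUSP6 at 92.1 in the inhibitor table.

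Transcription factors known to act at receptor genes were detected in full, 10 of 10 in each table, with 8 above the median detected gene per length. SPI1, which encodes PU.1, a factor needed for CSF1R and CSF3R in myeloid cells, stood highest with a level per length of 348 in the knockdown table and 377 in the inhibitor table. GATA1, the erythroid factor that acts at EPOR, stood lowest, at 1.53 and 2.72. The lists of ligands, relatives, signalling genes, inhibitors and factors describe the setting of the receptors only, and their members were not tested between groups.

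**Figure D5:**
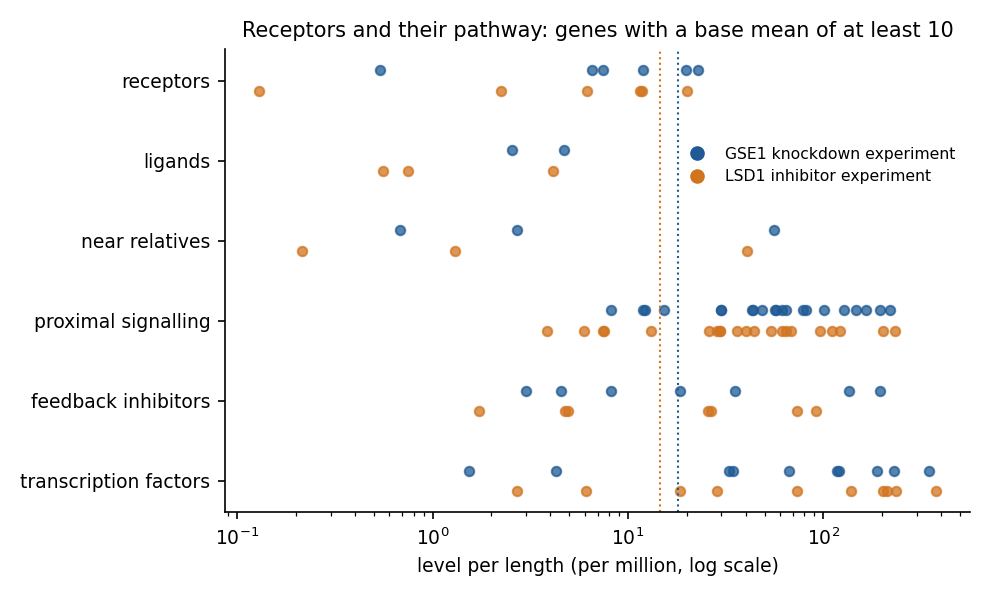
Level per length (per 1000000, log scale) of every detected gene in the list of receptors and in the 5 lists of pathway genes, in the GSE1 knockdown experiment (blue) and the LSD1 inhibitor experiment (orange). Dotted lines mark the median detected protein-coding gene, at 18.0 and 14.6, and most genes of proximal signalling lie to their right while the detected ligands lie to their left.

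Markers of the cell line were read from the same tables. Of 6 promyelocyte markers 5 were detected in both tables, led by the myeloperoxidase gene MPO with base means of 506765 and 824818, while ELANE, the neutrophil elastase gene, was not detected, at 1.10 and 3.87. GSE1, the gene that the hairpins target, had base means of 2963 and 4441, and KDM1A, which encodes LSD1, had 7648 and 6285. Because these means pool hairpin and control libraries, they do not check the knockdown. Markers of other lineages were detected in part: 3 of 5 for monocytes and macrophages, 2 of 5 for mature neutrophils, 2 of 4 for megakaryocytes, 2 of 3 for mast cells, 2 of 3 for B cells, 2 of 3 for epithelium and 1 of 3 for fibroblasts in each table. For red cells it was 2 of 5 in the knockdown table and 1 of 5 in the inhibitor table, for T cells 2 of 3 and 1 of 3, and for stem and progenitor cells 0 of 2 in both. These counts are to be read beside the 12609 and 12583 of 19957 protein-coding genes that were detected. Several defining genes were at or near 0. HBA1 (red cells) and PF4 (platelets) were listed at 0 in both tables, and MS4A1 (B cells) and DCN (fibroblasts) reached at most 1.77. The part of other cell types in the receptor levels was not tested.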

How the data were processed

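The 10 NB4 libraries were prepared by the authors with TruSeq and mapped to hg38 with STAR (version 2.7 in the submitters' processing notes), and genes were quantified with RSEM and compared with DESeq2, whose versions and gene annotation are not given in the sources used here. The deposited signal used here is the base mean, which the authors pooled over the libraries of each experiment, and both base mean columns of the knockdown table hold the same values. The other columns hold the authors' own comparisons (log2 fold changes, standard errors, Wald statistics and p-values). None of them was used. The count-based test that was planned needs a value per library and was not run, and base means carry no depth per library.

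Gene positions and lengths came from GENCODE release 44 on GRCh38, the same build as hg38, matched by stable identifier for 60261 of 60603 rows. Genes without a length held 0.117% and 0.103% of the summed base means. A base mean of at least 10 was taken as detected. The calculation of levels per length was run on simulated counts made with the same merged exon lengths. This checks the arithmetic only and cannot tell which length suits a gene. Python 3.11.15, pandas 2.3.3, numpy 2.4.6 and scipy 1.17.1 were used. The receptors and the gene lists were chosen with earlier results of these data known. Named genes are the 8 receptors, members of the gene lists, other genes with a Y pseudoautosomal row, and RGL3, which overlaps EPOR. Some of the list members are the highest or lowest of their list. The other list members were chosen after their values were seen.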

Additional observations from a re-analysis of the deposited data

How the results depend on the processing

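No paired analysis was possible because the tables hold no value per library, and for the same reason the count-based test, its other tool, the unfiltered fit and leaving out each replicate were not run. The number of receptors detected was 6 in both experiments, CSF2RA and IL3RA being listed at 0, and moved at most to 5, in the LSD1 inhibitor experiment, when 50 normalized counts or 1 per 1000000 were asked for. The number of receptors above the median detected gene in the GSE1 knockdown experiment moved from 2 to 1 with the longest transcript, with no length and with the median taken over genes at 50 or more, and to 4 with the median taken over all genes above 0. In the LSD1 inhibitor experiment it moved from 1 to 4 with the median taken over all genes above 0, and stayed at 1 under the other alternatives. Adding the Y rows changed no base mean. The other scalings of the difference between the tables, chosen after seeing the data, changed the sign for CSF3R alone among the 6 detected receptors. No standard error can be attached to a pooled mean, so small gaps between receptors are descriptions of these means.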

Other observations

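Cytokine receptor genes outside the 8 also had a Y pseudoautosomal row and were listed at 0 in both tables: CRLF2, in the first block, which encodes the receptor chain for TSLP, and IL9R, which encodes the IL-9 receptor. Their levels in NB4 cells were likewise not measured here.

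Some markers of other lineages were detected in both tables, with no explanation tested. CD3D, a chain of the T cell receptor complex, had base means of 866 and 869, whereas its partner CD3E had 1.55 and 2.98. EPCAM, an epithelial adhesion protein, had 432 and 403, and ITGA2B, the platelet integrin chain, had 660 and 549. Among mature neutrophil markers, MMP9 had 15005 and 10398, while LTF was listed at 0 in the knockdown table and had 1.16 in the inhibitor table.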
